A study of Mus musculus with 11 samples.

Results

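The interleukin-6 (IL-6) family was followed in fibroblasts sorted from mouse mammary glands and mammary tumours, through 10 genes: the ligands Il6, Lif, Osm and Il11, the receptors Il6st, Il6ra, Osmr and Lifr, and the signalling genes Stat3 and Socs3. A gene entered where a probe set carried its symbol and no other. This gave 11 probe sets for the 10 genes, of 35399 probe sets and 19938 genes in all, and for Socs3, which had 2, the brighter was kept. The rule names genes of the pathway and uses no measured value, though it was written with earlier results of these data known.

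Transcriptomes were profiled on 11 arrays to characterise fibroblasts through mammary carcinogenesis. Normal fibroblasts came from glands of non-transgenic FVB/n females of 8 weeks (2 arrays, D2 and D5). The other fibroblasts came from female MMTV-PyMT mice on the FVB/n background, in which the mammary tumour virus promoter drives the polyoma middle T oncogene in mammary epithelium. They covered hyperplasia at 4 weeks (3 arrays, D6, D7 and D12), carcinoma at 9 weeks (3 arrays, D3, D4 and D10) and advanced carcinoma at 12 weeks, labelled late carcinoma (3 arrays, D8, D9 and D11). All groups were sorted as CD140a+ cells that lacked the macrophage antigen of Adgre1, and were not cultured. The labels add that the cells lacked EpCAM, whereas the methods name an EpCAM stain only for validation sorts, so whether these arrays had an EpCAM gate is not settled. Each array was 1 cohort of pooled mice, so the spread between arrays is that between pools. Age went with stage, and the effects of age and stage cannot be told apart. Carcinoma and advanced carcinoma arrays together are called cancer-associated fibroblasts (CAFs, 6 arrays) and were also set against normal and hyperplasia fibroblasts together (5 arrays).

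IL-6 family cytokines share a receptor chain, gp130, which Il6st encodes. The ligands also bind a further chain: IL-6 binds the IL-6 receptor of Il6ra, LIF binds the chain of Lifr, and oncostatin M in mice binds chiefly the chain of Osmr. Receptor binding activates JAK kinases, which phosphorylate STAT3, and STAT3 in turn induces Socs3, whose product blocks gp130 signalling. In the mammary gland this pathway is known for its part in involution, and in tumours CAFs are a known source of IL-6.

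The start regions of 5 members are shown because Osmr, Stat3 and Il6ra are the genes whose levels separated CAF arrays from the others, and Il6 and Socs3 stand at the entry and the feedback of the pathway. Each runs 5′ to 3′ on the gene's strand, from 250 bases before the annotated start to 10 bases after it, from RefSeq on GRCm38.p6. Osmr lies at chr15:6874304-6874563 (- strand), Stat3 at chr11:100939531-100939790 (- strand), Il6ra at chr3:89913187-89913446 (- strand), Il6 at chr5:30012864-30013123 (+ strand) and Socs3 at chr11:117969357-117969616 (- strand). Capitals mark matches to 3 motifs searched on both strands, STAT (TTCNNNGAA), AP-1 (TGANTCA) and kappa B (GGANTTTCC), none of which overlapped another in these windows.
Osmr: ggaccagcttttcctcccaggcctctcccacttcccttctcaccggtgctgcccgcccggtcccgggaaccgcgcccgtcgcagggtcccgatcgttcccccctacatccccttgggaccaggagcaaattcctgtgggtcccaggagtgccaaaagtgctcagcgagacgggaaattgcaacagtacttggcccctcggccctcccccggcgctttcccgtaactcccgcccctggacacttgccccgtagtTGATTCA
Stat3: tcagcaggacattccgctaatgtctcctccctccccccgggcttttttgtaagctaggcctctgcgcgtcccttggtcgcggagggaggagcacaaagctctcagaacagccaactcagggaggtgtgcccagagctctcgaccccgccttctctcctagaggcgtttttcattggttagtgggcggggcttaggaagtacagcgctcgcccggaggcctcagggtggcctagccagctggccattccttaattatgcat
Il6ra: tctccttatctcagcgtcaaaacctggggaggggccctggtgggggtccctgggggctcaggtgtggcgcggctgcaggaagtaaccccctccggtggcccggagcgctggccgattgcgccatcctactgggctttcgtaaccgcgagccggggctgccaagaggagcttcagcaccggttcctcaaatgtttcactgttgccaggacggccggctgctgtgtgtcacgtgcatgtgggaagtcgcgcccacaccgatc
Il6: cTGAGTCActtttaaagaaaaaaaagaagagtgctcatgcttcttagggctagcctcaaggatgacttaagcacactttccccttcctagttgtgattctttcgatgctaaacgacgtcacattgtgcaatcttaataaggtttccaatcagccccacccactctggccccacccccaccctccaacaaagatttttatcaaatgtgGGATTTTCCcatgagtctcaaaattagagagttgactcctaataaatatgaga
Socs3: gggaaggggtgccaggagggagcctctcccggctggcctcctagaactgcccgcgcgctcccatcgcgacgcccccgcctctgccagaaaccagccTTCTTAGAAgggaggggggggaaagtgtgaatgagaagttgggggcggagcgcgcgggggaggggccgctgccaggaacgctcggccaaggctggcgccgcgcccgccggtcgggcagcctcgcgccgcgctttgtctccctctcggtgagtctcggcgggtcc
Windows of 300 bases, reaching 50 bases past the start, were searched for 9 of the 10 members. Socs3 held a STAT match at bases -154 to -146, and 8.298% of 32851 windows in the RefSeq table held one. Il6 held an AP-1 match at -249 to -243 and the only kappa B match among the members, at -43 to -35, a motif found in 1.254% of windows. Osmr held its AP-1 match just past the start, at bases 4 to 10, and Lif and Il11 held 1 further upstream (7.808% of windows). The windows of Stat3 and Il6ra held none of the 3. The window of Il6 held 3 CpG sites in 300 bases, with 22 in Osmr, 15 in Stat3, 25 in Il6ra and 31 in Socs3 and a median of 7 over all windows. The window of Lif held 7, equal to that median, and fewer were found in 1 of the 2 windows of Il11 (1) and of Lifr (4). A match describes the letters only, and the arrays measured no binding.

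Values were deposited as robust multi-array average (RMA) log2 intensities, in which 1 unit is a doubling. Array medians lay between 5.28 and 5.39. The number of arrays limits the precision, and 2 of them stand apart. For each probe set the D2 and D11 values add up to 2 times the average of the 9 remaining arrays, with a largest gap of 0.000144, so normal D2 and advanced carcinoma D11 do not vary freely. Tests were given with and without a term for them, 1 shift common to both arrays. The sum places the 2 values on opposite sides of that average, and a common shift cannot take this up. In CAFs against the rest the term left differences nearly unchanged and widened their errors. Osmr differed there by 1.141 (SE 0.156) without it and by 1.143 (SE 0.163) with it. A call lost with the term in that comparison shows a wider error, and a call kept is no check on the tie. Carcinoma D4 was low in fibroblast transcripts, with a mean of 9.32 over 13 fibroblast markers, against 10.60 to 11.26 on the other 10 arrays. In bulk RNA, fewer cells of a type and less RNA per cell cannot be told apart.

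Osmr, the chain that gives oncostatin M its own receptor, showed the largest rise among the members. It measured 8.47 and 9.06 in normal fibroblasts, 8.07, 8.30 and 8.21 in hyperplasia, 9.31, 9.44 and 9.64 in carcinoma, and 9.65, 9.73 and 9.62 in advanced carcinoma, with arrays in the order listed above. All 6 CAF arrays lay above all 5 others, and the hyperplasia arrays lay below both normal ones. Osmr averaged 9.56 ± 0.16 in CAFs (SD, n = 6) and 8.42 ± 0.38 in fibroblasts of normal and hyperplastic glands (SD, n = 5). This difference of 1.14 (SE 0.16), or 2.21-fold, passed limma's test with an adjusted p of 0.000713.

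Stat3, the transcription factor that carries the signal to the nucleus, had the same order of stage means, from hyperplasia, the lowest, through normal and carcinoma to advanced carcinoma. Its values were 9.29 and 9.54 in normal, 8.97, 9.08 and 9.27 in hyperplasia, 9.72, 10.03 and 9.74 in carcinoma, and 9.92, 10.07 and 9.90 in advanced carcinoma fibroblasts. Again no CAF array overlapped the rest. The means were 9.90 ± 0.14 in CAFs and 9.23 ± 0.22 in fibroblasts of normal and hyperplastic glands (SD, n = 6 and 5), a difference of 0.67 (SE 0.10, 1.59-fold, limma adjusted p = 0.0014).

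Il6ra, which encodes the chain that binds IL-6, went the other way. It measured 8.56 and 8.75 in normal, 8.58, 8.81 and 8.46 in hyperplasia, 7.85, 7.61 and 7.92 in carcinoma, and 7.39, 7.42 and 7.61 in advanced carcinoma fibroblasts. Normal and hyperplasia arrays shared 1 range, and every CAF array lay below it. Il6ra averaged 7.63 ± 0.22 in CAFs and 8.63 ± 0.14 in fibroblasts of normal and hyperplastic glands (SD, n = 6 and 5). It was 2.0-fold lower in CAFs (log2 difference -1.0, SE 0.11, limma adjusted p = 0.000229).

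Il6st, the chain shared by the receptors of the 4 ligands, was lower in CAFs by less. Its values were 10.69 and 11.03 in normal, 10.83, 11.01 and 10.78 in hyperplasia, 10.59, 9.81 and 10.79 in carcinoma, and 10.30, 10.43 and 10.55 in advanced carcinoma fibroblasts. Carcinoma D4, the array low in fibroblast markers, was the lowest and carcinoma D10 lay within the range of the controls. The difference of -0.46 (SE 0.15) between CAFs and the rest just passed (limma adjusted p = 0.0461) and did not with a term for D2 and D11 (adjusted p = 0.0655) or without any 1 of D2, D5, D6, D7, D12, D8, D9 and D11 (up to 0.101). Without D4 it was -0.34 (adjusted p = 0.0321).

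Across the 10 members, 2 rose and 2 fell in CAFs at an adjusted p under 0.05, and 24.9% of all genes tested passed in that comparison. The groups did not overlap for 3 members, as for 14.9% of all genes. The median difference of the members was 0.10, against -0.04 over all genes. The receptor side was divided, with Osmr higher and Il6ra and Il6st lower in CAFs.

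**Figure D1:**
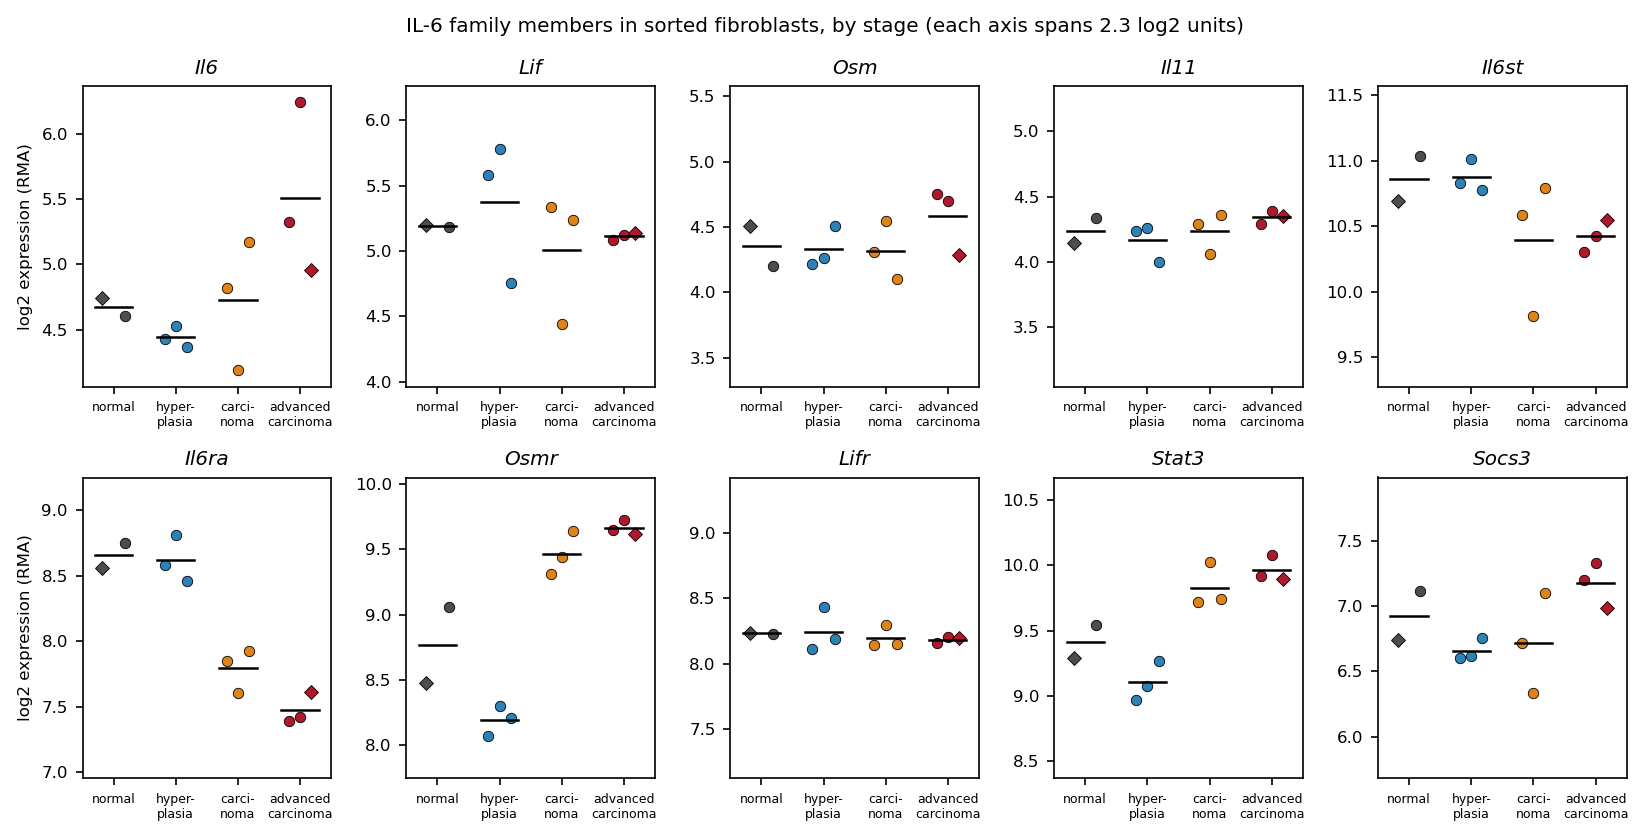
The log2 expression of the 10 members by stage, 1 point per array, with bars at the stage means and diamonds for normal D2 and advanced carcinoma D11. Each vertical axis spans 2.3 log2 units; Osmr and Stat3 stand higher and Il6ra lower on the 6 carcinoma and advanced carcinoma arrays than on the other 5.

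Lifr, the LIF receptor chain, gave the narrowest range of the receptors, from 8.14 to 8.30 in CAFs and from 8.11 to 8.43 in normal and hyperplasia fibroblasts. The difference was -0.05 with a 95% confidence interval of -0.18 to 0.08 (limma adjusted p = 0.565), and its sign turned under quantile normalization (0.0126). Lifr and Osmr are neighbours on chromosome 15, with 3 genes between them and 0 of these coding in the RefSeq annotation.

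Il6 itself, the cytokine that names the family, was dim on most arrays, below the median of all genes on 10 of 11. It measured 4.75 and 4.61 in normal, 4.43, 4.53 and 4.37 in hyperplasia, 4.82, 4.19 and 5.17 in carcinoma, and 5.32, 6.24 and 4.96 in advanced carcinoma fibroblasts. The 3 advanced carcinoma arrays lay above all normal and hyperplasia arrays, while carcinoma D4 was the lowest of the 11. CAFs exceeded the rest by 0.58 (SE 0.28), which did not pass (95% confidence interval -0.04 to 1.2, limma adjusted p = 0.154). Without D4 the difference was 0.76 and passed (adjusted p = 0.0354). Without advanced carcinoma D9, the highest array, it was 0.35 (adjusted p = 0.208).

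Socs3, the feedback inhibitor, measured 6.74 and 7.11 in normal, 6.60, 6.62 and 6.75 in hyperplasia, 6.72, 6.33 and 7.10 in carcinoma, and 7.20, 7.33 and 6.99 in advanced carcinoma fibroblasts. The carcinoma arrays were spread widest, with D4 the lowest of the 11 and D10 level with normal D5. The CAF difference of 0.18 (SE 0.17) did not pass (limma adjusted p = 0.46). Its dimmer probe set did not stand higher in CAFs, at 4.81 to 5.49 on the CAF arrays and 5.15 to 5.63 on the others.

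Of the other ligands, Lif, the leukaemia inhibitory factor, measured 5.20 and 5.19 in normal, 5.58, 5.78 and 4.76 in hyperplasia, 5.33, 4.44 and 5.24 in carcinoma, and 5.08, 5.13 and 5.14 in advanced carcinoma fibroblasts. The spread within hyperplasia and within carcinoma was larger than any difference between stage means, and CAFs differed from the rest by -0.24 (SE 0.20, limma adjusted p = 0.395). Osm, which encodes oncostatin M, ranged from 4.10 to 4.76 in CAFs and from 4.20 to 4.51 in normal and hyperplasia fibroblasts (difference 0.11, SE 0.12, adjusted p = 0.548). Il11 ranged from 4.06 to 4.39 in CAFs and from 4.0 to 4.34 in the others (0.10, SE 0.07, adjusted p = 0.369). Osm and Il11 were below the median of all genes on all 11 arrays and Lif on 9, so a low level and no expression could not be separated for them. Lif and Osm are adjacent on chromosome 11.

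Between single stages, members passed where carcinoma or advanced carcinoma was set against hyperplasia or normal fibroblasts. Hyperplasia against normal fibroblasts gave 0 of 10 members, as it gave 0% of all genes (limma smallest adjusted p = 0.789, with 841 genes and 2 members at an unadjusted p under 0.05). Those members were Osmr at -0.57 (95% confidence interval -0.94 to -0.21, adjusted p = 0.999) and Stat3 at -0.31 (-0.61 to -0.02, adjusted p = 0.999), each lower on all 3 hyperplasia arrays than on both normal ones. These differences were not significant after correction, and the groups did not overlap for 18.5% of all genes in that comparison.

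Carcinoma against hyperplasia gave 3 members, with 9.25% of all genes called. Osmr rose by 1.27 (SE 0.14), Stat3 rose by 0.72 (SE 0.12) and Il6ra was lower at -0.83 (SE 0.12). Their limma adjusted p-values were 0.00678, 0.0111 and 0.0098. All 3 also passed with a term for D2 and D11. Neither array belongs to these stages, so the term left the differences unchanged and was no check of them. In a fit of these 6 arrays alone none of the 3 passed (adjusted p between 0.0557 and 0.0841).

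The same 3 passed between advanced carcinoma and hyperplasia, where 14.5% of all genes were called. Osmr differed by 1.47, or 2.77-fold, Stat3 by 0.86, or 1.81-fold, and Il6ra by -1.15, or 2.21-fold lower in advanced carcinoma (limma adjusted p = 0.00217, 0.00422 and 0.00262). Il6 differed by 1.06 and just missed (2.09-fold, adjusted p = 0.0572). All 3 advanced carcinoma arrays lay above all 3 hyperplasia arrays for Il6, and 42.1% of all genes did not overlap there. Without carcinoma D4, Il6, Il6st and Socs3 passed too, which made 6 members, and without carcinoma D10, Il6 and Socs3 did, which made 5. Calls over all genes in this comparison changed with the setting too, as given below. These counts are therefore no result about the members.

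Against normal fibroblasts, only 2 arrays, the calls were fewer. Advanced carcinoma gave 3 members, with 5.61% of all genes called: Il6ra at -1.18 (SE 0.13, limma adjusted p = 0.00546), Osmr at 0.90 (SE 0.16, adjusted p = 0.0196) and Stat3 at 0.55 (SE 0.13, adjusted p = 0.0459). With a term for D2 and D11 Stat3 did not pass (adjusted p = 0.0787). Leaving out D2, D8 or D9 left Il6ra alone, and leaving out D5 left Osmr alone. Carcinoma gave Il6ra alone (-0.86, SE 0.13, adjusted p = 0.0304), with 0.938% of all genes called, and with the term for the tied arrays it gave none (Il6ra adjusted p = 0.113). Il6ra missed there too without any 1 of D2, D5, D6, D7, D3, D8, D9 and D11. Osmr at 0.70 and Stat3 at 0.41 did not pass there (adjusted p = 0.0805 and 0.157). Their carcinoma arrays lay above both normal ones, and the groups did not overlap for 33.7% of all genes in that comparison.

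Between advanced carcinoma and carcinoma no member passed, and 0% of all genes did (limma smallest adjusted p = 0.37, 1124 genes and 3 members at an unadjusted p under 0.05). The 3 were Il6 at 0.78, Socs3 at 0.46 and Il6ra at -0.32, each with an adjusted p of 0.884 and with overlapping arrays. These stage comparisons share arrays with one another, so their calls are not independent.

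**Figure D2:**
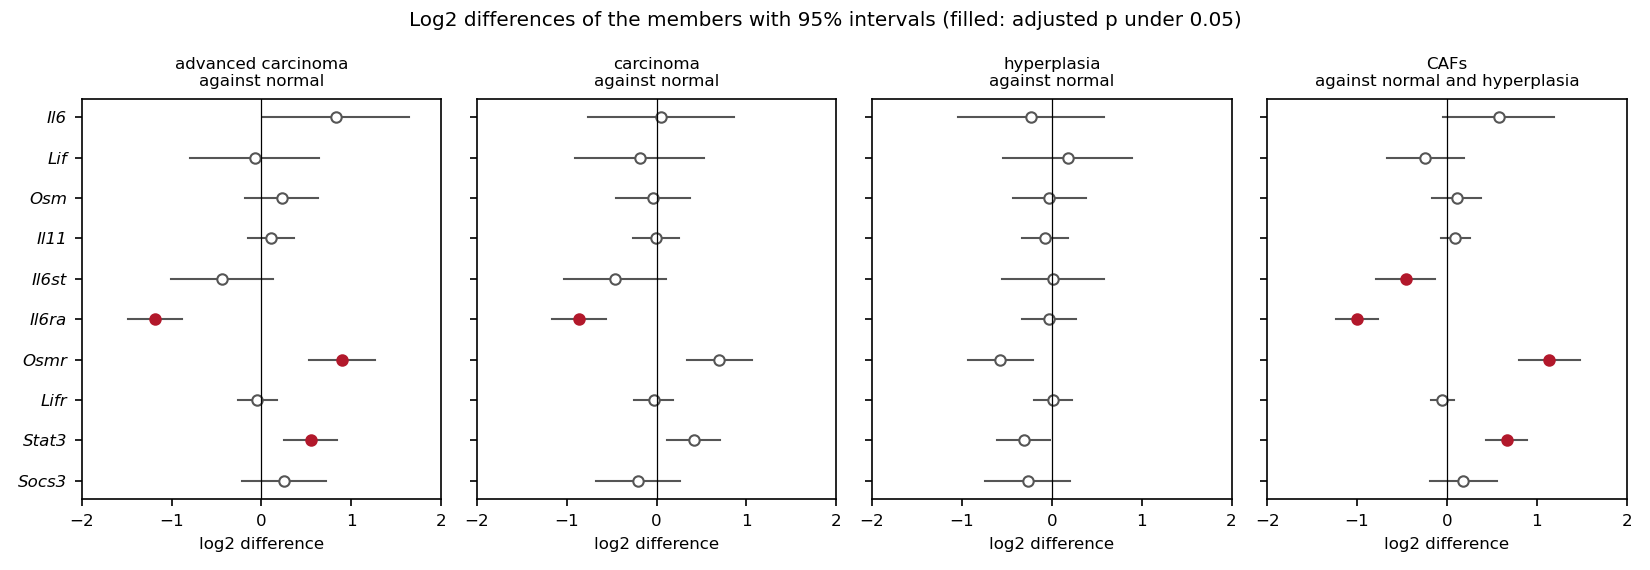
Log2 differences of the 10 members (rows) with 95% confidence intervals, in 4 comparisons, filled where limma's adjusted p was under 0.05. Il6ra and Osmr lie furthest from 0 in opposite directions, at -1.0 and 1.14 in CAFs against normal and hyperplasia fibroblasts.

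The genes whose profiles over the 11 arrays were most like those of the 4 members called were picked by Pearson's r, as a description across arrays that share stages and marker content. For Il6ra they were Nckap5 (r = 0.987), Ntrk3 (0.986) and Kcnn3 (0.983), and for Il6st Fam102b (0.991), Zeb1 (0.989) and Lynx1 (0.988). For Osmr they were Plp2 (0.987), Cd44 (0.970) and Atp11a (0.970), and for Stat3 Cd44 (0.985), Trib1 (0.982) and Sbno2 (0.981). Cd44, a hyaluronan receptor at the cell surface, was thus near the top for both genes that rose.

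The rest of the pathway was read from lists by role, in CAFs against normal and hyperplasia fibroblasts. The share of all genes called there, 24.9%, is the background for each count, and a list near it is no result about that list. Of 6 other family ligands measured 1 rose and none fell, with a median of -0.11. This was Ctf1, cardiotrophin, at 5.99 ± 0.12 in CAFs and 5.62 ± 0.06 in fibroblasts of normal and hyperplastic glands (SD, n = 6 and 5), a difference of 0.37 with no overlap (limma adjusted p = 0.00211). Clcf1 (-0.17, adjusted p = 0.102) and Ctf2 (-0.12, adjusted p = 0.253) came next by p and did not pass.

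Of 3 other receptors measured, 2 fell in CAFs and none rose, and with the term for D2 and D11 Il31ra alone passed. Il31ra, a chain of the IL-31 receptor that pairs with the product of Osmr, averaged 4.51 ± 0.39 in CAFs and 5.74 ± 0.28 in fibroblasts of normal and hyperplastic glands (SD, n = 6 and 5). All CAF arrays lay below all others (difference -1.24, SE 0.19, limma adjusted p = 0.00136). Il27ra, of the IL-27 receptor, differed by -0.77 (adjusted p = 0.0339), and Cntfr, the ciliary neurotrophic factor receptor, by -0.65 (adjusted p = 0.0521), with carcinoma D4 above all normal and hyperplasia arrays. Neither protease that sheds the IL-6 receptor passed, with Adam17 at -0.29 (adjusted p = 0.0891) and Adam10 at 0.07 (adjusted p = 0.574).

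Among 9 JAK-STAT signal transducers, a list that also holds Ptpn11, Grb2, Gab1 and Sos1, 1 rose and 2 fell, with a median of -0.03. Stat5a rose by 0.50, while the kinases Jak1 and Jak2, which bind gp130, differed by -0.32 and -0.27 (limma adjusted p = 0.0365, 0.0315 and 0.0374). With a term for D2 and D11 only Jak1 passed. Among 12 negative regulators 2 rose and 1 fell, a share close to that of all genes, with a median of 0.04. These were Ptpn2, a phosphatase of JAK and STAT proteins (0.45, adjusted p = 0.0114), Socs6 (0.26, adjusted p = 0.0351) and Socs1, an inhibitor of JAK kinases (-0.25, adjusted p = 0.0432), of which Ptpn2 alone passed with the term.

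Of 22 STAT3 target genes, listed from general knowledge of STAT3, 9 rose and 3 fell in CAFs, with a median of 0.48, against 24.9% of all genes called and a median of -0.04. The 3 with the smallest p were the secreted glycoprotein gene Lrg1, the acute-phase gene Saa3 and Lcn2, which encodes lipocalin. Lrg1 averaged 8.73 ± 0.52 in CAFs and 5.57 ± 0.95 in the others (SD, n = 6 and 5), a difference of 3.16 (limma adjusted p = 0.000529). Saa3 rose by 1.24 (adjusted p = 0.000649) and Lcn2 by 2.0 (adjusted p = 0.000905), each with no overlap between groups. Lrg1 and Lcn2 were highest of the 11 arrays on carcinoma D4 (9.59 and 11.65), and Saa3 on advanced carcinoma D9 (6.20). D4 had the highest mean of the luminal epithelial markers described below (9.22) and the lowest fibroblast marker mean (9.32). The part of other cell types in these rises was not tested. The 3 that fell, named after their values were seen, were Il4ra at -1.06, Fgl2 at -0.89 and Cebpd at -0.49, of which Cebpd did not pass with the term for D2 and D11 (adjusted p = 0.0568). Against normal fibroblasts alone, 5 of the 22 rose in advanced carcinoma (Lrg1, Saa3, Lcn2, Lbp and Birc5, named after their values were seen) and none fell, with 5.61% of all genes called. With that term 2 rose, and 2.34% of all genes were called.

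Of 8 genes listed as inducers of Il6, 3 rose and 1 fell, with a median of 0.36. The list also holds Nfkbia (0.04, not called), which encodes an inhibitor of the NF-kappa B factors. Il1b, an inflammatory cytokine, ranged from 5.19 to 7.96 in CAFs and from 4.20 to 5.57 in the others, so the groups overlapped (difference 1.74, SE 0.50, limma adjusted p = 0.0278). Il1a rose by 1.22 (adjusted p = 0.0282), as did Nfkbiz, named after its values were seen, by 0.73 (adjusted p = 0.0465), and Il17ra, a chain of the IL-17 receptor, differed by -0.51 (adjusted p = 0.0396). With the term for D2 and D11, Il1b and Il1a passed and Nfkbiz and Il17ra did not. Il1b was highest on D9, D8 and D4 (7.96, 7.67 and 6.65), and so was Il1a (5.97, 5.93 and 5.26). These arrays had the highest means of the macrophage markers described below (8.14, 7.99 and 7.77). The part of other cell types in these rises was not tested.

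**Figure D3:**
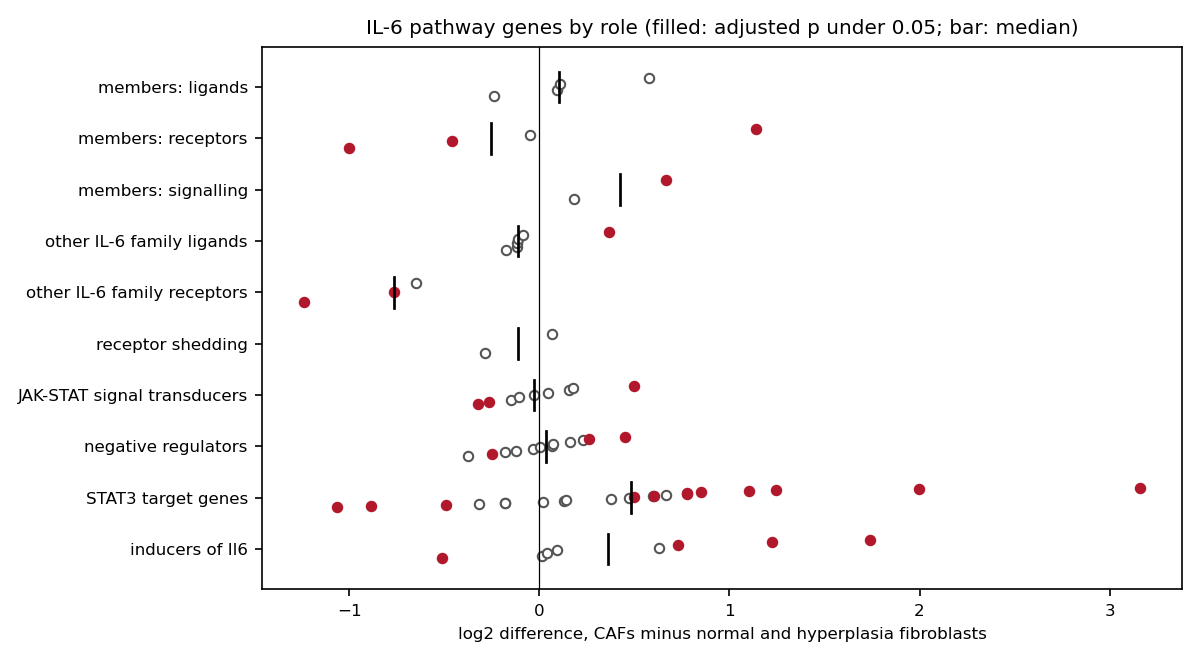
Log2 differences of the members and of the other pathway genes by role, in CAFs against normal and hyperplasia fibroblasts, 1 point per gene, filled where limma's adjusted p was under 0.05, with a bar at each list's median. The STAT3 target genes reach furthest to the right, with Lrg1 at 3.16, while the points of the other receptors all lie to the left of 0.

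Markers of other cell types moved with these results. Of 16 luminal epithelial markers 15 rose in CAFs, and the list's mean lay between 8.03 and 9.22 in CAFs and between 5.68 and 7.18 in normal and hyperplasia fibroblasts. Ehf, Cldn3 and Csn3 led that list, with differences of 2.93, 2.21 and 2.06 (limma adjusted p = 0.000351, 0.000351 and 0.00038), and Epcam, an epithelial surface marker, rose by 2.16 (adjusted p = 0.00149). Of 12 macrophage markers 11 rose, with list means of 6.26 to 8.14 in CAFs and 4.79 to 6.15 in the others. These were led by Cd14 (2.44, adjusted p = 0.00167), C1qb (2.52, adjusted p = 0.00303) and Lyz2 (2.83, adjusted p = 0.0035), and Adgre1, which encodes the macrophage antigen of the sort, rose by 2.32 (adjusted p = 0.00719).

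Fibroblast markers had list means of 9.32 to 10.97 in CAFs and 10.86 to 11.26 in the others. Of 13, none rose and 2 fell, Pi16 at -1.23 and Cd34 at -0.82 (limma adjusted p = 0.00698 and 0.0181), with Dpt at -0.59 next (adjusted p = 0.0534). Pdgfra, which encodes the sorted antigen CD140a, averaged 10.50 ± 0.66 in CAFs and 11.16 ± 0.22 in fibroblasts of normal and hyperplastic glands (SD, n = 6 and 5, adjusted p = 0.11). Transcripts of the labelled cell type were thus measured on every array, with those of other cells beside them.

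Of 9 T and NK cell markers none rose and 4 fell, led by Cd8b1 (-1.51), Cd8a (-1.37) and Cd4 (-1.39), the other being Cd3e (-1.66, named after its values were seen), with list means of 5.31 to 6.83 in CAFs and 6.14 to 8.42 in the others. Of 5 B cell markers 3 fell, Cd79b (-1.31), Ms4a1 (-1.34) and Cd79a (-1.36), with list means of 5.67 to 7.11 in CAFs and 6.63 to 8.38 in the others. With the term for D2 and D11 only Cd8b1, Cd8a and Cd79b of these passed. Of 7 basal epithelial markers 3 rose (Trp63 at 0.67, Krt5 at 1.55, Krt14 at 1.31) and 1 fell, Myh11 at -1.03, named after its values were seen, and of 8 neutrophil markers 1 rose (Ltf, also a milk protein gene, 2.91) and 1 fell (Ly6g, -0.24), with S100a8 at 0.71 not passing. Of 7 mast cell markers 1 rose (Kit, also found in luminal progenitors, 2.3) and 2 fell (Cpa3, -1.81, and Tpsb2, -0.50), and of 10 endothelial markers 1 fell (Tek, -1.72), with Vwf at -0.60 and Emcn at 0.64 not passing. With the term Myh11, Ly6g, Cpa3 and Tpsb2 did not pass (adjusted p from 0.0529 to 0.0669).

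Set beside these lists array by array, the members differed. Osmr stayed between 9.31 and 9.73 over the 6 CAF arrays while the macrophage mean ran from 6.26 to 8.14 and the luminal mean from 8.03 to 9.22. Like Osmr, Stat3 and Il6ra, the macrophage and luminal means did not overlap between the CAF arrays and the others. Stat3 was highest on D9 and D4, and Il6ra lowest on D8 and D9, where the macrophage means were high. Il6 was highest on D9 and D8, the arrays with the highest macrophage means, yet lowest on D4, whose macrophage mean of 7.77 was the third highest and whose fibroblast mean was the lowest. The part of other cell types in the differences of Osmr, Stat3, Il6ra, Il6st and Il6, and in those of the pathway lists, was not tested.

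**Figure D4:**
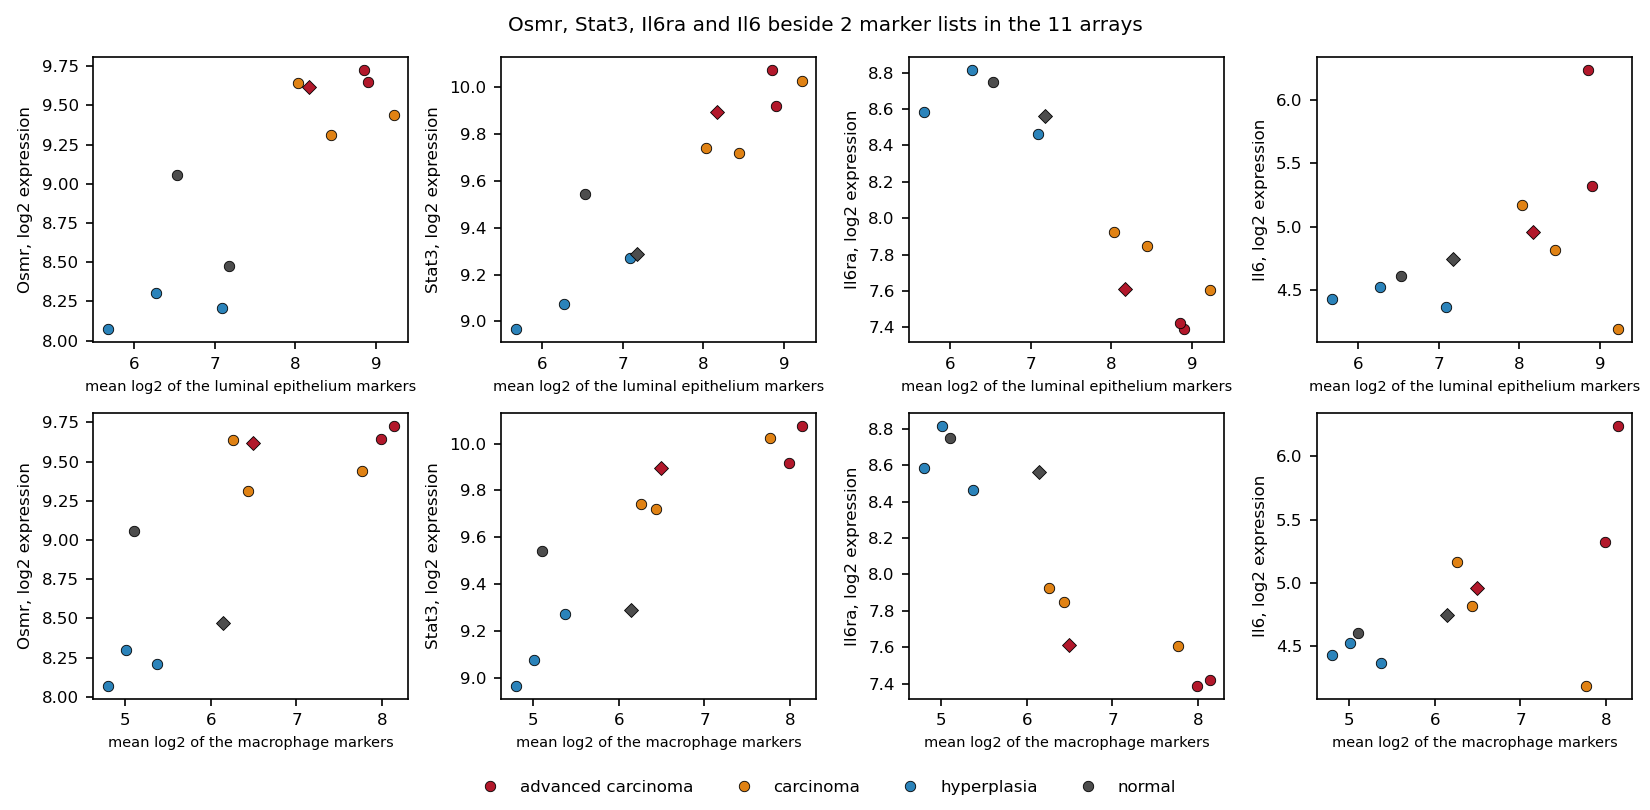
Log2 expression of Osmr, Stat3, Il6ra and Il6 (vertical axes) on each of the 11 arrays against the mean log2 of the luminal epithelial markers (top row) and of the macrophage markers (bottom row), with the tied arrays D2 and D11 as diamonds. The CAF arrays lie at luminal means of 8.03 to 9.22 and the others at 5.68 to 7.18, with no overlap, and Il6 on carcinoma D4 lies at the bottom of both of its panels.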

How the data were processed

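RNA of sorted fibroblasts was hybridised to Affymetrix Mouse Gene 1.0 ST arrays, and the authors normalised and summarised the scans by robust multi-array averaging (RMA) in Partek 6.5. The deposited values are log2 intensities of 35399 probe sets. The genome build behind the array annotation is not given in the sources used here. Of the probe sets, 21789 had 1 symbol, 1621 had several and 11989 had none in the platform annotation, and those with 1 symbol gave 19938 genes, the brightest probe set kept for each of 999 genes with more than 1. The sums that tie normal D2 to advanced carcinoma D11 are named in no step of the methods.

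Groups were taken from the sample labels. Tests used limma (3.58.1, R 4.3.3), with 1 fit of 4 stages (7 residual degrees of freedom, 6 with the term for D2 and D11) and 1 fit of CAFs against the rest (9, or 8 with the term). P-values were adjusted by Benjamini-Hochberg over all genes, with a threshold of 0.05. The methods named a one-way ANOVA, with genes kept at p under 0.05 before adjustment and a change of more than 1.5-fold. Each was tried alone as an alternative. ANOVA contrasts were called at an adjusted p under 0.05, and the threshold of the methods was put on limma's unadjusted p and the fold. The ANOVA and that threshold were not combined. Other scalings, filters and left-out arrays were also tried. The scripts were tested on simulated data. All members were named, and of each list the up to 3 genes with the smallest p and Pdgfra, Epcam and Adgre1. Listed genes without a probe set of their own were not analysed here. The members and lists were chosen with earlier results of these data known.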

Additional observations from a re-analysis of the deposited data

Results flagged for a closer look

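Carcinoma D4 stood apart from the other 5 CAF arrays in 3 members. For Lif its gap to the nearest array was 0.718 of the range (4.44 against 5.08), for Il11 0.696 (4.06 against 4.29) and for Lifr 0.633 (8.30 against 8.20). Chance marks about 1 in 20 groups, and 3 of 20 groups checked were marked.

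The change against normal fibroblasts differed between stages for Il6ra, Osmr and Stat3, by limma's test of the stages against each other. The change in carcinoma minus that in hyperplasia was -0.83 for Il6ra, 1.27 for Osmr and 0.72 for Stat3. The change in advanced carcinoma minus that in hyperplasia was -1.15 for Il6ra, 1.47 for Osmr and 0.86 for Stat3. The limma adjusted p-values ran from 0.00217 to 0.0111. Normal D2 and D5 enter both terms of each difference and cancel, so each equals the direct difference between the stages.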

How the results depend on the processing

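In CAFs against normal and hyperplasia fibroblasts, Il6ra (-1.09 to -0.95), Osmr (1.05 to 1.3) and Stat3 (0.58 to 0.77) passed under all 22 alternatives, and between advanced carcinoma and hyperplasia fibroblasts under all 23. Il6st lost its call in 13 of 22 (adjusted p from 0.0195 to 0.101). The count of members called in CAFs ran from 3 to 5 with 1 array left out. Advanced carcinoma against normal gave 1 member by ANOVA contrasts, 0 without D2 and D11, and 1 to 3 with 1 array left out. Carcinoma against normal gave 2 members under quantile normalization and 2 at the threshold of the methods. It gave 0 by ANOVA contrasts, with the term for D2 and D11, without these 2 arrays, and in a fit of its own arrays, and 0 to 1 with 1 array left out (0 without D2, D5, D6, D7, D3, D8, D9 or D11). Hyperplasia against normal gave 0 members under every alternative. Advanced carcinoma against carcinoma gave 1 with array weights (Il6ra), 1 at the threshold of the methods (Il6) and 0 with any 1 array left out. Carcinoma against hyperplasia gave 0 in a fit of its own arrays, where fewer arrays entered, and 3 with any 1 array left out. Advanced carcinoma against hyperplasia gave 6 with array weights, 6 in a fit of its own arrays, 3 to 6 with 1 array left out (6 without D4, 5 without D10) and 7 without D2, D11 and D4, a setting chosen after seeing the data. The sign of Lifr in CAFs turned under quantile normalization (0.0126). Under quantile normalization Il6st did not pass in CAFs (2 higher, 1 lower), and under it and under centring on array medians Stat3 did not pass against normal (1 higher, 1 lower). Over all genes, calls ran from 27 to 3908 in advanced carcinoma against normal (1118 in the main setting), 0 to 1391 in carcinoma against normal (187), 0 to 200 in hyperplasia against normal (0), 0 to 1301 in advanced carcinoma against carcinoma (0), 5 to 2937 in carcinoma against hyperplasia (1845), 892 to 6237 in advanced carcinoma against hyperplasia (2897) and 2426 to 7062 in CAFs (4961). The cause of these changes was not tested. No paired analysis was possible because the stages share no array numbers. With 2 normal arrays and probe sets below the median of all genes on most arrays, small changes of Osm, Il11, Lif and Il6 could not be resolved.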
